A study of Mus musculus with 6 samples.

Results

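The genes described here are 9 members of the elastase and antiprotease balance of the lung, taken from the table by gene symbol: the neutrophil serine proteases Elane, Ctsg and Prtn3, the secreted or cellular inhibitors Serpina1a, Serpina1b, Serpina3n, Serpinb1a and Slpi, and Cst3. All 9 of 9 were found among the 57180 rows of the table. They were measured in polyadenylated RNA from 6 mouse lung samples. The samples were 3 wild-type (WT) and 3 FTO-overexpressing (FTO_OE) lungs, and FTO is a demethylase that acts on N6-methyladenosine in RNA. Every animal of both groups had been exposed to cigarette smoke in a model of chronic obstructive pulmonary disease, so both groups carry the exposure and none of the comparisons is with an unexposed lung. The labels give neither strain, age, sex nor duration of exposure, and they do not say how or in which cells FTO was overexpressed or whether each library came from a separate mouse. If the libraries are not separate animals, the p-values measure only the spread between these samples, which may be technical.

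Neutrophil elastase, cathepsin G and proteinase 3 are serine proteases stored in the primary granules of neutrophils. Their genes are transcribed mainly in neutrophil precursors of the bone marrow, so a mature neutrophil carries much of the protein and little of the transcript. In the lung the proteases can cut elastin and other matrix proteins, and inhibitors hold them in check. Inherited lack of the main plasma inhibitor, alpha-1-antitrypsin, predisposes to emphysema, the loss of alveolar walls. Cystatin C, the product of Cst3, inhibits cysteine proteases such as the cathepsins and not serine proteases.

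The libraries held 16731850 to 21444907 counts. Fto was the check of the labels: it was at 68.2 ± 1.85 CPM (SD, n = 3) in wild-type and 685.7 ± 48.4 CPM (SD, n = 3) in FTO-overexpressing lungs, where CPM is the read count per gene scaled to a common library size with TMM factors. Markers of lung epithelium were abundant in all 6 libraries, with a summed level of 18603 to 24750 CPM for 10 alveolar type 2 markers and 21903 to 33654 CPM for 8 club cell markers. FTO-overexpressing replicate 3 stood apart from the other 5 libraries for the 3 proteases, and the protease ratios and the medians of the neutrophil lists are given with and without it. In these whole-lung samples fewer cells of a type and less RNA per cell cannot be told apart.

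The data showed no difference between genotypes in any of the 9 genes beyond the spread between replicates. 7 of the 9 passed the filter on low counts, and Serpina1a and Serpina1b did not. Of those 7, 0 had an adjusted p under 0.05 in edgeR's quasi-likelihood test (Benjamini-Hochberg over 16989 genes), against 0.0942% of all genes tested. 0 of the 7 had an unadjusted p under 0.05, against 9.44% of all genes tested, and the smallest was 0.162. DESeq2 and limma-voom also called 0 of them. The 2 groups overlapped in all 9 genes, but Serpina1a, at 0 in most libraries, could not do otherwise. Of the 7 tested, 0 had groups that did not overlap, against 14.8% of all genes tested. With so few genes, 0 is near that share. The fold change was above 1 in 3 of the 7, against 51.5% of all genes tested, and below 1 in 4, and the median log2 fold change was -0.053 against 0.0070 over all genes tested.

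**Figure D1:**
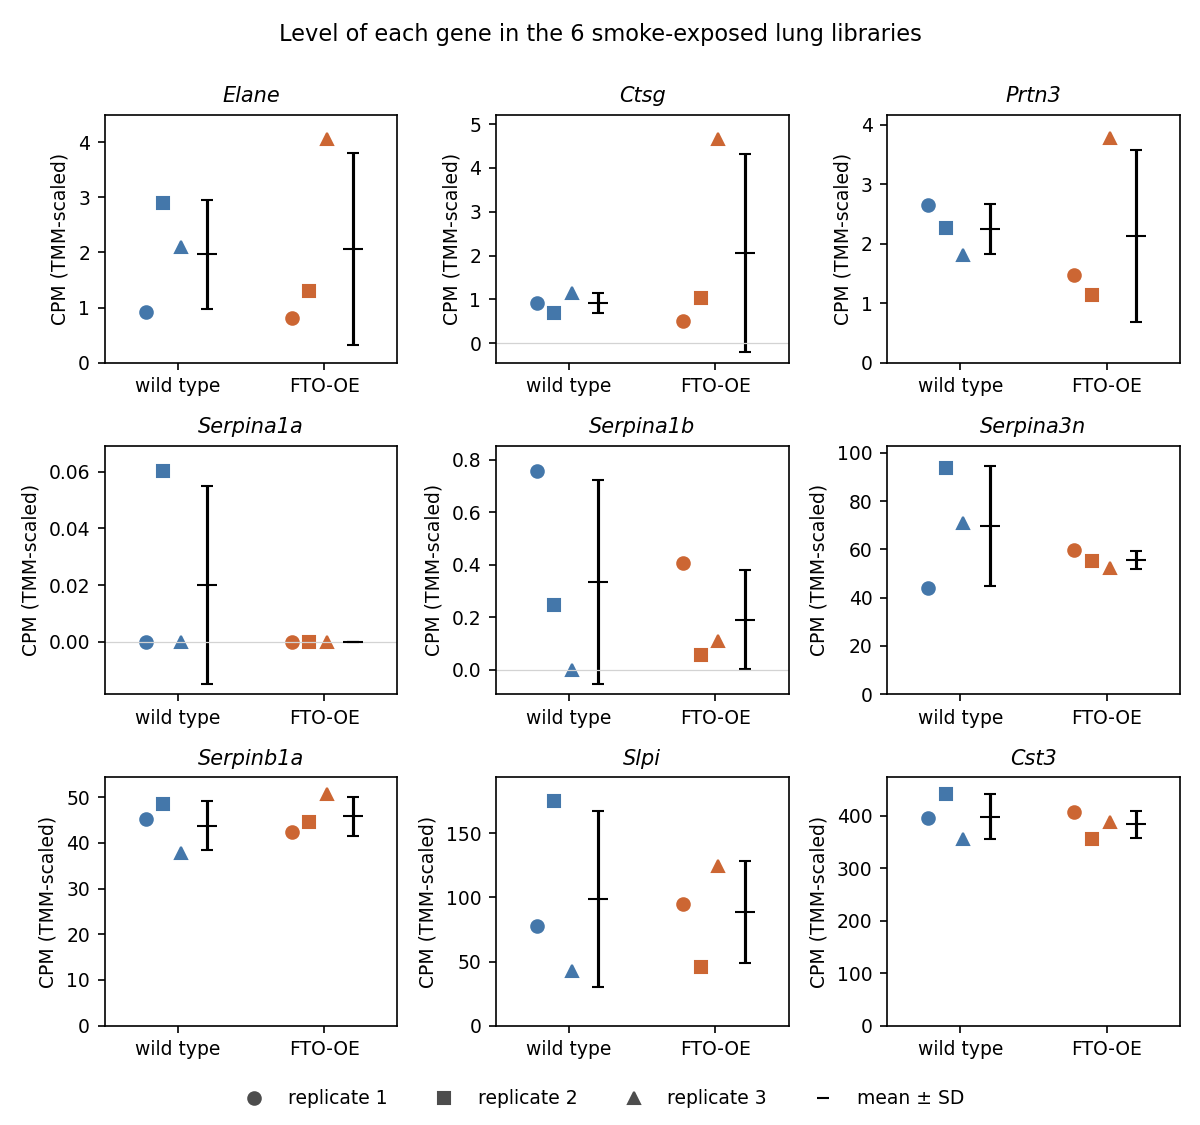
Level of each of the 9 genes in TMM-scaled CPM (y axes, linear, each panel with its own range) in 3 wild-type (blue) and 3 FTO-overexpressing (FTO-OE, orange) libraries, with symbols for the replicates and the mean ± SD in black. The groups overlap in every panel, and FTO-overexpressing replicate 3 is the highest library for Elane, Ctsg and Prtn3.

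The promoters of the 3 proteases are shown because these genes shared their highest library. Elane and Prtn3 are neighbours on mouse chromosome 10, with Prtn3, Elane and, further on, Cfd, the gene of complement factor D, in that order in RefSeq's annotation of GRCm38.p6, and Ctsg lies on chromosome 14. The sequences are the 250 bases before each gene's start in RefSeq on GRCm38.p6, 5′ to 3′ on the gene's strand. The capitals mark AGGAAGT, a form of the binding sequence of ETS factors such as PU.1, a regulator of myeloid genes.
Elane (chr10:79886062-79886311, strand +): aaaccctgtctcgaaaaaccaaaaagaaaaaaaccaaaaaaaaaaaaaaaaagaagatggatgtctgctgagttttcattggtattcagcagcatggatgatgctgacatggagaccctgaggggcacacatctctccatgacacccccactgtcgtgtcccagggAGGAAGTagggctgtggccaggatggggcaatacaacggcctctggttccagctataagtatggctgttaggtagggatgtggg
Prtn3 (chr10:79879417-79879666, strand +): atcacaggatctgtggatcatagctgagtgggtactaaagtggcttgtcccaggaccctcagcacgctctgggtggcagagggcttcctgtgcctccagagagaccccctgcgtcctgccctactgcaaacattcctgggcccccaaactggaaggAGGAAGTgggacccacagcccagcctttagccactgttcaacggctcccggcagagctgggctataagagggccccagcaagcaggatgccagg
Ctsg (chr14:56102575-56102824, strand -): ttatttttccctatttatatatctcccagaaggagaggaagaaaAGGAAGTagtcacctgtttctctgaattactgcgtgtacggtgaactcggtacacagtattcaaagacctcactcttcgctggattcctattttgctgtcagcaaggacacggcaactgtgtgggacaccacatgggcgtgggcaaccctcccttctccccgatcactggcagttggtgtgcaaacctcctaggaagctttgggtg
AGGAAGT began 84 bases before the start in Elane, 94 in Prtn3 and 206 in Ctsg, each time on the gene's own strand. On either strand it was found in 3 of the 8 members with a promoter in the table, those 3 genes, and in 7.69% of 32851 promoters of this length. The core TTGCNNAA, a partial form of the sequence bound by C/EBP factors, was in the promoters of Serpina1b and Slpi and in 9.56% of all promoters. The core TGTGGT of RUNX factors was in those of Ctsg, Serpina1a and Serpina1b and in 14% of all promoters. All 3 motifs were chosen after these sequences were read. They were searched on both strands, and a match describes the letters only.

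Elane (ENSMUSG00000020125), the gene of neutrophil elastase, was at 0.921, 2.89 and 2.09 CPM in wild-type replicates 1 to 3 and at 0.813, 1.31 and 4.06 CPM in FTO-overexpressing replicates 1 to 3. These levels rest on 16 to 88 counts per library. The FTO-overexpressing group held both the lowest and the highest of the 6 libraries. The means were 1.97 ± 0.990 and 2.06 ± 1.75 CPM (SD, n = 3 each), and the fitted ratio was 1.06 (95% interval 0.378 to 2.95; edgeR adjusted p = 0.987). These libraries bound the change of Elane only loosely. Without FTO-overexpressing replicate 3 the ratio was 0.538 (edgeR adjusted p = 0.858), and without wild-type replicate 1 it was 0.840 (edgeR adjusted p = 0.920).

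Ctsg (ENSMUSG00000040314) encodes cathepsin G, which mast cells can also express. It was at 0.921, 0.683 and 1.16 CPM in the wild-type libraries and at 0.508, 1.02 and 4.66 CPM in the FTO-overexpressing libraries. 5 of the 6 libraries lay between 0.508 and 1.16 CPM, and FTO-overexpressing replicate 3, with 101 counts against 10 to 21 elsewhere, lay above them all. The fitted ratio was 2.26 (95% interval 0.663 to 7.71; edgeR adjusted p = 0.718), the largest of the 7 fitted genes. Without FTO-overexpressing replicate 3 it was 0.829 (edgeR adjusted p = 0.966). Without FTO-overexpressing replicate 1 it was 3.12 (unadjusted p = 0.0369 and adjusted p = 0.502 in edgeR).

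Prtn3 (ENSMUSG00000057729), the gene of proteinase 3, was at 2.66, 2.26 and 1.82 CPM in the wild-type libraries and at 1.47, 1.14 and 3.78 CPM in the FTO-overexpressing libraries. FTO-overexpressing replicates 1 and 2 lay below all wild-type libraries and replicate 3 above them all. The fitted ratio was 0.958 (95% interval 0.459 to 2.00; edgeR adjusted p = 0.984). It was 0.584 without FTO-overexpressing replicate 3 (unadjusted p = 0.0534 and adjusted p = 0.750 in edgeR) and 1.18 without replicate 2 of that group (edgeR adjusted p = 0.890). The sum of the 3 protease genes was 4.50, 5.83 and 5.06 CPM in the wild-type libraries and 2.80, 3.47 and 12.5 CPM in the FTO-overexpressing libraries. On the log2 CPM scale, Pearson's r over the 6 libraries was 0.696 between Elane and Ctsg, 0.587 between Elane and Prtn3 and 0.668 between Ctsg and Prtn3. The 6 points share libraries and include the high one.

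**Figure D2:**
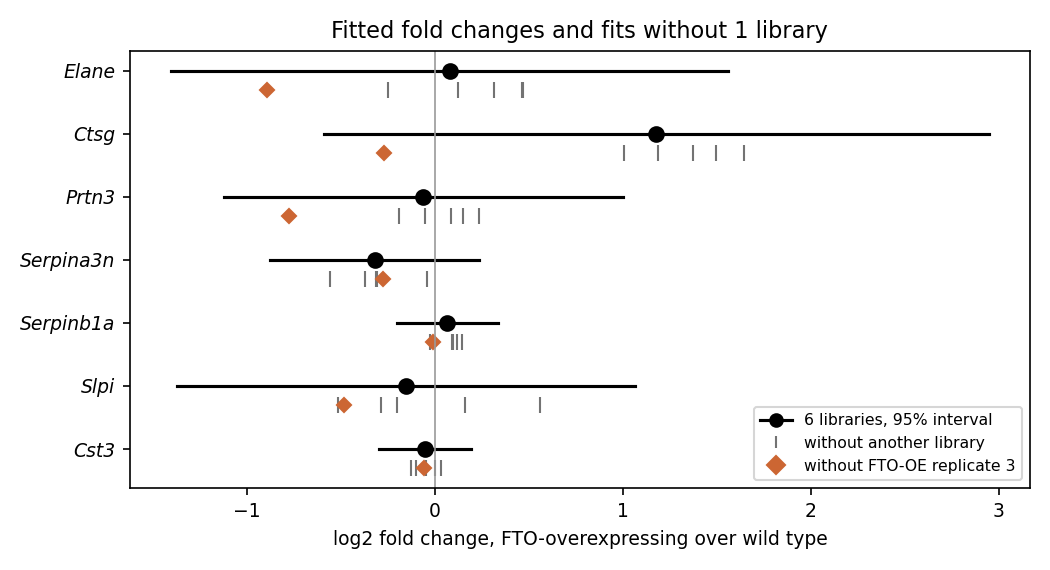
Fitted log2 fold change (x axis, FTO-overexpressing over wild type) of the 7 genes that passed the filter on low counts, with its 95% interval (black), and below each the values from fits without 1 library (grey ticks, and an orange diamond for the fit without FTO-overexpressing replicate 3). Every interval crosses 0, and without FTO-overexpressing replicate 3 the log2 fold change was -0.90 for Elane, -0.27 for Ctsg and -0.78 for Prtn3.

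Genes of neutrophil precursors were highest in the same library. Of 9 tested precursor markers, 8 were highest in FTO-overexpressing replicate 3, against 16.5% of all genes tested, and the exception was Chil3, which alveolar macrophages also express. Mpo and Ngp, granule genes of early and later precursors that were chosen after their values were seen, show the pattern. Mpo was at 3.85, 9.61 and 5.39 CPM in the wild-type and 2.95, 3.87 and 14.1 CPM in the FTO-overexpressing libraries. Ngp was at 101.7, 283.4 and 120.8 CPM in the wild-type and 127.3, 160.0 and 420.3 CPM in the FTO-overexpressing libraries. Both were second highest in wild-type replicate 2, as was Elane. Of 12 markers of neutrophils at large, 6 were highest in FTO-overexpressing replicate 3. Their summed level was 1341 to 1813 CPM in the wild-type and 1102 to 2357 CPM in the FTO-overexpressing libraries. The summed precursor level, of which Chil3 made up most, was 1868 to 2521 CPM and 1334 to 1997 CPM.

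**Figure D3:**
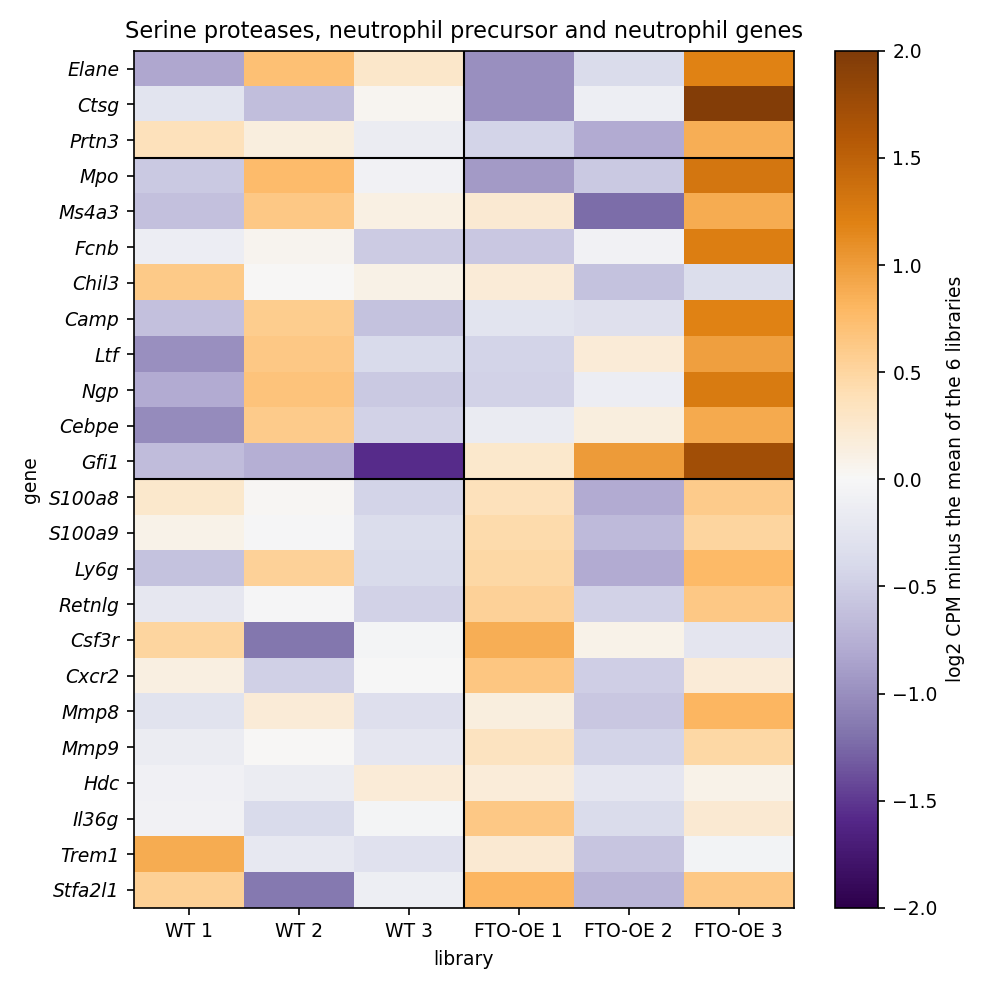
Log2 CPM minus the mean of the 6 libraries (colour) for the 3 serine proteases, 9 neutrophil precursor markers and 12 neutrophil markers (rows, in blocks from top to bottom) in each library (columns). FTO-overexpressing replicate 3 is the highest library for the 3 proteases and for 8 of the 9 precursor markers.

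No called difference was seen in either neutrophil list. Of the 12 neutrophil markers 0 passed an edgeR adjusted p of 0.05 and 0 had an unadjusted p under 0.05; the median log2 fold change was 0.32, with 1.45-fold for the resistin-like gene Retnlg, 1.30-fold for the cytokine gene Il36g and 1.23-fold for the gelatinase gene Mmp9. Without FTO-overexpressing replicate 3 that median was 0.10. Of the 9 precursor markers 0 passed and 1 had an unadjusted p under 0.05, the transcription factor gene Gfi1, with a median of 0.48. The median rests on single libraries: it was -0.19 without FTO-overexpressing replicate 3 and 1.01 without wild-type replicate 2. Gfi1 was at 0.823 ± 0.287 and 3.75 ± 1.88 CPM (SD, n = 3 each; 4.54-fold, edgeR adjusted p = 0.150), and the groups did not overlap; Gfi1 is also expressed by lymphocytes. Values were 0.721 for the ratio of Chil3 and 1.56-fold for the ficolin gene Fcnb. Haemoglobin genes, a measure of blood in the tissue, took 0.368% of the counts of FTO-overexpressing replicate 3 and 0.856% to 3.27% of the other libraries. The summed level of 10 T and NK cell markers was also highest there, at 790.9 CPM, with 379.6 and 512.0 CPM in replicates 1 and 2 of its group and 69.4 to 112.6 CPM in the wild-type libraries. The part of these measures in the protease levels was not tested. Mast cells and basophils carry related proteases. Their 12 markers summed to 278.5 to 333.6 CPM in the wild-type and 310.3 to 326.2 CPM in the FTO-overexpressing libraries, but Kit (means of 196.8 and 216.4 CPM) and Gata2 (98.5 and 82.9 CPM), which other lung cells also express, made up most of it. Of 10 mast cell and basophil markers tested 0 passed and 2 had an unadjusted p under 0.05, against 9.44% of all genes tested. The median log2 fold change of the 10 was 0.76. Tpsab1 was at 0, and the fold change was 2.56 for Cpa3, 2.93 for the chymase gene Cma1 and 1.94 for Prss34. The other tested protease genes of this mast cell and basophil list were at 0.925 for Mcpt4 and 2.44 for Mcpt8, and Gata2 was at 0.842. Kit, Gata2, Mcpt4 and Mcpt8 were chosen after their values were seen.

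Alpha-1-antitrypsin transcripts were near the limit of detection. This inhibitor of elastase is made mainly by hepatocytes and reaches the lung through the blood, and the mouse carries several copies of its gene. The coding sequences of the 5 copies Serpina1a to Serpina1e, each of 1239 bases in GENCODE M21, were 96.3% to 98.5% identical in pairs, and 33.8% of the windows of 75 bases in Serpina1b and 66.4% in Serpina1a also occurred in another copy. Reads from such stretches cannot be given to 1 copy, and the values of single copies are uncertain. The stretch below, bases 1101 to 1160 counted from the first base of the start codon, is shown because it is the 60-base window with the most differences. It holds 18 of the 86 positions at which the 5 copies differ, in capitals. It lies toward the 3′ end of the coding sequence, the part of a serpin that encodes the reactive loop, the bait that the protease cuts.
Serpina1a: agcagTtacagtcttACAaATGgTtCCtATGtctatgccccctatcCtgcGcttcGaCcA
Serpina1b: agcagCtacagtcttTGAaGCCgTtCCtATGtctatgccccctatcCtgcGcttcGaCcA
Serpina1c: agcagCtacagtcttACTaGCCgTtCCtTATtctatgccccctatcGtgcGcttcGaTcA
Serpina1d: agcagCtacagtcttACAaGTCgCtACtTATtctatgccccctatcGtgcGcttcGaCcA
Serpina1e: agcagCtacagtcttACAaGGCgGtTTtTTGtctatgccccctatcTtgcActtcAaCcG
Serpina1a (ENSMUSG00000066366) had 1.15 counts in wild-type replicate 2 and 0 in the other 5 libraries. Serpina1b (ENSMUSG00000071178) had 14, 4.67 and 0 counts in the wild-type libraries and 8, 1 and 2.4 counts in the FTO-overexpressing libraries. The 5 copies differ in the stretch above and what each inhibits was not measured, so their sum is not a measure of elastase inhibitor alone. The sum of the 5 copies was 27, 7 and 0 counts in the wild-type libraries and 12, 2 and 6 counts in the FTO-overexpressing libraries. That is 1.46, 0.368 and 0 CPM against 0.610, 0.114 and 0.277 CPM. A count of 0 allows up to 0.165 CPM in wild-type replicate 3 (3 counts, counting error only). Wild-type replicate 1 held the most counts, and the groups overlapped. The difference of the summed level was -0.12 on the log2(CPM + 0.1) scale, with p = 0.9 in an exact two-sided permutation test over the libraries, whose smallest possible p is 0.1. Its sign turned without wild-type replicate 1 (0.83, exact permutation p = 0.5), without FTO-overexpressing replicate 2 (0.31, exact permutation p = 0.9) and with a pseudocount of 0.01 CPM (0.66, exact permutation p = 0.9), which was tried before 0.1 CPM, so no direction is given. Hepatocyte markers were also scarce: 10 of them summed to 7.89 to 11.9 CPM in the wild-type and 9.24 to 19.2 CPM in the FTO-overexpressing libraries. At the upper end of each range Cyp2e1 alone was at 6.36 CPM (wild-type replicate 2) and 14.0 CPM (FTO-overexpressing replicate 2). The list also holds Serpina1c, an antitrypsin copy. Of 5 hepatocyte markers tested 0 passed, with a median log2 fold change of -0.13, and the ratio was 1.98 for Cyp2e1, 0.711 for Apob and 0.639 for Fga.

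Serpina3n (ENSMUSG00000021091) encodes a secreted serpin related to human alpha-1-antichymotrypsin, an inhibitor of cathepsin G. It was at 44.0, 93.8 and 71.0 CPM in the wild-type libraries and at 59.8, 55.2 and 52.2 CPM in the FTO-overexpressing libraries. The 3 FTO-overexpressing libraries lay within 1.14-fold of each other and the wild-type libraries within 2.13-fold, with wild-type replicate 1 below and replicates 2 and 3 above all FTO-overexpressing libraries. The fitted ratio was 0.800 (95% interval 0.545 to 1.18; edgeR adjusted p = 0.766). Without wild-type replicate 1 it was 0.679 (unadjusted p = 0.00436 and adjusted p = 0.162 in edgeR), and without wild-type replicate 2 it was 0.970 (edgeR adjusted p = 0.999). The value was below 1 in all 15 alternatives and edgeR, DESeq2 or limma-voom adjusted p stayed at or above 0.162 in each. The alternative with the antitrypsin copies summed repeated the main values for this gene.

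Serpinb1a (ENSMUSG00000044734), a serpin inside neutrophils and other cells that inhibits all 3 of these proteases, was at 45.1, 48.4 and 37.8 CPM in the wild-type and 42.4, 44.5 and 50.6 CPM in the FTO-overexpressing libraries. All 6 libraries lay within 1.34-fold of each other. The fitted ratio was 1.05 (95% interval 0.871 to 1.26; edgeR adjusted p = 0.919). The interval leaves out a rise of more than 1.26-fold and a fall below a ratio of 0.871, so Serpinb1a is bounded far more closely than the proteases.

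Slpi (ENSMUSG00000017002) encodes secretory leukocyte protease inhibitor, an airway product that inhibits elastase and cathepsin G. It was at 78.0, 175.3 and 42.6 CPM in the wild-type and at 95.1, 45.8 and 124.9 CPM in the FTO-overexpressing libraries. Both groups spread widely, by 4.12-fold and 2.73-fold, and the wild-type group held the highest and the lowest library. The means were 98.6 ± 68.7 and 88.6 ± 39.9 CPM (SD, n = 3 each) and the fitted ratio was 0.899 (95% interval 0.386 to 2.09; edgeR adjusted p = 0.966). Without wild-type replicate 2 the ratio was 1.47 and without wild-type replicate 3 it was 0.700 (edgeR adjusted p = 0.986 and 0.936). Slpi counts were high, from 774 to 3338 per library, so the width of its interval goes with the spread between libraries rather than with low counts. Club cells make Slpi, and their 8 markers differed in direction: 0 passed an adjusted p of 0.05, 6 had a fold change above 1 and the median log2 fold change was 1.77, ranging from 0.87 to 3.34 without 1 library (without FTO-overexpressing replicate 2 and without wild-type replicate 3). The fold change was 5.25 for the mucin gene Muc5b, 1.41 for Scgb3a2 and 6.42 for Bpifb1, with adjusted p of 0.217, 0.473 and 0.610 in edgeR. The most abundant markers lay below 1, Scgb1a1 at a ratio of 0.803 (26692 ± 3331 and 21447 ± 3024 CPM; SD, n = 3 each) and Cyp2f2 at 0.890, with edgeR adjusted p of 0.746 and 0.772. Bpifa1 was at 0.488, 1.73 and 147.0 CPM in wild-type replicates 1 to 3. Bpifb1 was at 0.379, 2.05 and 41.3 CPM there, and Reg3g at 0.217, 0.420 and 18.2 CPM. The FTO-overexpressing libraries were at 24.4 to 401.0, 17.7 to 183.7 and 6.27 to 76.1 CPM for these genes. The groups overlapped for each. Scgb1a1, Cyp2f2, Bpifa1 and Reg3g were chosen after their values were seen. Slpi was highest in wild-type replicate 2. That library was the highest for 0 of the 8 club cell markers, 5 of 10 alveolar type 2 markers and 5 of 10 fibroblast markers. No share over all genes was taken for that library, and the part of any cell type in the Slpi level was not tested.

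Cst3 (ENSMUSG00000027447), the gene of cystatin C, was at 396.6, 441.8 and 355.7 CPM in the wild-type and at 407.9, 356.2 and 387.4 CPM in the FTO-overexpressing libraries. It was the steadiest of the 7 genes, within 1.24-fold over the 6 libraries. The fitted ratio was 0.964 (95% interval 0.814 to 1.14; edgeR adjusted p = 0.934). On the log2 CPM scale Pearson's r between Cst3 and Slpi was 0.912 over the 6 libraries, the highest among the 7 genes, although Slpi ranged over 4.12-fold and Cst3 over 1.24-fold. It is a description over libraries that share depth and makeup.

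Per kilobase of exon (GENCODE M21 lengths), the level of the genes in wild-type lungs ran in the order Cst3, Slpi, Serpina3n, Serpinb1a, Prtn3, Elane, Ctsg, Serpina1b and Serpina1a. Cst3 was at 462.8 ± 50.1 CPM per kb, Slpi at 109.6 ± 76.4, Serpina3n at 33.7 ± 12.1 and Serpinb1a at 22.8 ± 2.84 CPM per kb (SD, n = 3). Prtn3 was at 2.19 ± 0.410, Elane at 2.00 ± 1.01, Ctsg at 0.918 ± 0.236 and Serpina1b at 0.148 ± 0.172 CPM per kb. The ranges of mean ± SD overlapped between Slpi and Serpina3n, Serpina3n and Serpinb1a, Prtn3 and Elane, Elane and Ctsg, and Serpina1b and Serpina1a. They did not overlap between Cst3 and Slpi, Serpinb1a and Prtn3, or Ctsg and Serpina1b. In FTO-overexpressing lungs Cst3 was at 446.3 ± 30.3, Slpi at 98.4 ± 44.4, Serpina3n at 27.0 ± 1.83 and Serpinb1a at 23.9 ± 2.21 CPM per kb, and Elane, Prtn3 and Ctsg were at 2.09 ± 1.78, 2.08 ± 1.40 and 2.06 ± 2.26 CPM per kb.

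The balance of inhibitor and protease transcripts overlapped between the genotypes. The 5 serine protease inhibitors (Serpina1a, Serpina1b, Serpina3n, Serpinb1a and Slpi) summed to 131.8, 265.7 and 101.4 CPM per kb in the wild-type and to 156.9, 100.8 and 190.5 CPM per kb in the FTO-overexpressing libraries. The 3 proteases summed to 4.45, 5.82 and 5.05 CPM per kb and to 2.77, 3.46 and 12.5 CPM per kb. The inhibitor sum was 29.7, 45.6 and 20.1 times the protease sum in the wild-type libraries and 56.6, 29.1 and 15.3 times in the FTO-overexpressing libraries. The FTO-overexpressing group held both the highest and the lowest ratio. Slpi, which ranged over 4.12-fold across the libraries, made up the largest part of the inhibitor sum. Alone it was 19.5, 33.5 and 9.37 times the protease sum in the wild-type libraries and 38.1, 14.7 and 11.1 times in the FTO-overexpressing libraries. The inhibitor sum also pools inhibitors of different proteases. These ratios concern transcripts in lung tissue, while protease protein stored in neutrophils and plasma antitrypsin are not measured by them.

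**Figure D4:**
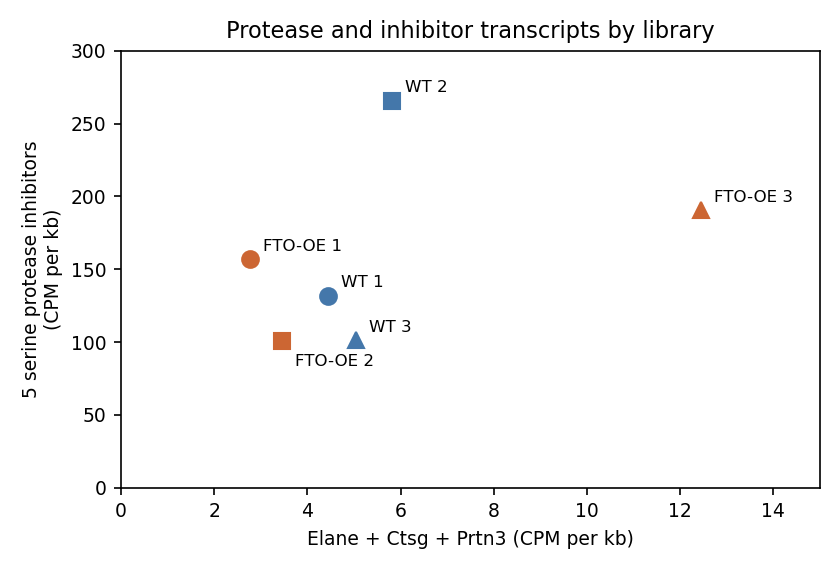
Summed level of the 5 serine protease inhibitors (y axis, CPM per kb of exon) against that of Elane, Ctsg and Prtn3 (x axis, CPM per kb) in each library, wild type in blue and FTO-overexpressing (FTO-OE) in orange. FTO-overexpressing replicate 3 has the highest protease sum at 12.5 CPM per kb, and wild-type replicate 2 the highest inhibitor sum at 265.7 CPM per kb.

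The genes whose pattern over the 6 libraries was most like that of a member were found by Pearson's r of log2 CPM among 13494 genes, for members with a mean of at least 50 counts. For Slpi they were Derl3 (r = 0.9995) and Pspc1 (0.991), for Serpina3n Otud3 (0.988) and Chst2 (0.988), for Serpinb1a Haus8 (0.989) and Lmf1 (0.987), and for Cst3 Bmp2k (0.990) and Rrp8 (0.989). With 6 libraries, 18 to 49 genes exceeded 0.95 for each of these members.

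Of the other genes of the pathway, 0 passed an adjusted p of 0.05 in any of 6 lists by edgeR, and limma-voom also called 0. Other settings made calls. In the list of neutrophil granule and serine protease genes 3 passed with no filter on low counts, 3 with DESeq2, 1 with the replicate block, 1 without wild-type replicate 1 and 2 without FTO-overexpressing replicate 1. In the list of cystatins and cathepsins 2 passed with no filter, 2 with DESeq2 and 1 without FTO-overexpressing replicate 1. DESeq2 called 1 of the elastase substrates and receptors. Over all genes tested the calls were 287 of 29537 with no filter, 420 of 18069 with DESeq2 and 2 of 16989 with the replicate block. They were 11 of 17373 without wild-type replicate 1 and 49 of 17389 without FTO-overexpressing replicate 1. The genes called in these settings are not named here, and the granule list also holds granzymes of lymphocytes. Among 13 tested genes of neutrophil granules and other granule serine proteases, the median log2 fold change was 0.48. It was 0.12 without FTO-overexpressing replicate 3 and 1.01 without wild-type replicate 2. With all libraries 3 of the 13 had an unadjusted p under 0.05 in edgeR, against 9.44% of all genes tested. These 3 were granzymes, serine proteases of cytotoxic lymphocytes: Gzma at 12.2 ± 6.51 and 112.9 ± 41.8 CPM (9.24-fold, adjusted p = 0.0513), Gzmb at 13.6-fold and Gzmk at 22.3-fold (adjusted p of 0.101 and 0.117). Ctsc, whose product cathepsin C activates both granzymes and the neutrophil proteases and which was named for that role after its value was seen, had a ratio of 0.961 (95% interval 0.806 to 1.14). Among 21 other serpins, 2 had an unadjusted p under 0.05, near the 9.44% of all genes tested, and the median was -0.031. These 2 were Serpina3c and Serpina3m, relatives of Serpina3n, at ratios of 0.659 and 0.453 (edgeR adjusted p of 0.208 and 0.345). Their groups did not overlap, as in 3 of the 21 and in 14.8% of all genes tested. Serpina3g, a relative expressed in lymphoid cells, was at 1.46-fold (adjusted p = 0.604). The Serpina3 genes are close copies, and reads can be split between them.

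Among 12 tested inhibitors of the WFDC, Kunitz, macroglobulin and TIMP families, 0 had an unadjusted p under 0.05, against 9.44% of all genes tested. The median log2 fold change was -0.082, with ratios of 0.895 for Tfpi, 0.913 for Timp2 and 0.897 for Timp3. Among 17 tested genes of the list of cystatins and cathepsins, 4 had an unadjusted p under 0.05 and the median was -0.12. The list includes relatives of Cst3 and targets of its product, but also Ctsd, whose product is not a cysteine protease. Ctsw and Cst7, a cathepsin and a cystatin of cytotoxic lymphocytes, were at 4.78-fold and 3.79-fold (edgeR adjusted p of 0.0970 and 0.149), and Ctsh, a cathepsin of alveolar type 2 cells, was at a ratio of 0.847 (adjusted p = 0.363). Among 11 elastase substrates and receptors, 3 had an unadjusted p under 0.05 and the median was -0.051: Sftpd, the gene of surfactant protein D, at a ratio of 0.741, the thrombin receptor gene F2r at 0.842 and Lrp1, whose product clears serpin complexes, at 0.788 (edgeR adjusted p of 0.228, 0.400 and 0.483). Among 12 acute phase genes, a programme to which Serpina3n and antitrypsin belong, 2 had an unadjusted p under 0.05 and the median was -0.20. The ratio was 0.784 for the interleukin-6 receptor gene Il6ra, 0.405 for Saa3 and 0.767 for Cfb (edgeR adjusted p of 0.239, 0.488 and 0.638).

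Among the 10 cell type lists, 3 genes were called, all in the T and NK cell list. Of its 10 genes, Ccl5, Klrk1 and Cd8a rose past an edgeR adjusted p of 0.05, which 0.0942% of all genes tested passed in either direction. The median log2 fold change of the list was 2.31. All 10 had groups that did not overlap and an unadjusted p under 0.05, against 14.8% and 9.44% of all genes tested. The number called was 10 with DESeq2, 9 with no filter, 6 without FTO-overexpressing replicate 1, 1 with limma-voom, 1 without FTO-overexpressing replicate 3, and 0 with the replicate block. It was also 0 when replicate 2 of either genotype or replicate 3 of the wild type was left out. Over all genes tested the calls were 287 of 29537 with no filter and 49 of 17389 without FTO-overexpressing replicate 1. They were 5 of 16989 with limma-voom, 6 of 17391 without FTO-overexpressing replicate 3 and 2 of 16989 with the replicate block. 0 genes passed in the other lists by edgeR. Of 10 alveolar type 2 markers all 10 had a fold change below 1, while 51.5% of all genes tested were above 1, and the median was -0.26. Of these markers 5 had an unadjusted p under 0.05 and 7 had groups that did not overlap, against 9.44% and 14.8% of all genes tested. DESeq2 called 4 of them, and 420 of the 18069 genes it tested. Sftpd was at 0.741, Abca3 at 0.817 and Lyz1 at 0.655, while Sftpc, the most abundant and chosen after its value was seen, was at 0.913. The median of 0.050 over 10 monocyte and dendritic cell markers covers unlike genes. Of these markers Ly6c2, Cx3cr1 and Ccr2 were at 2.01-fold, 1.93-fold and 1.79-fold (edgeR adjusted p of 0.251, 0.376 and 0.387) with groups that did not overlap. These were the 3 with an unadjusted p under 0.05, and 4 of the 10 had a fold change below 1. Itgam and Csf1r of the same list, chosen after their values were seen, were at 1.24 and 0.973, and their groups overlapped. Of 10 alveolar macrophage markers 1 had an unadjusted p under 0.05, and the median was -0.31. Of 10 fibroblast markers 2 did, with a median of -0.13 that was 0.092 without wild-type replicate 2. Summed levels were 2112 to 3016 and 1464 to 2347 CPM for alveolar macrophages, 430.8 to 704.7 and 685.1 to 828.7 CPM for monocytes and dendritic cells, and 1884 to 2807 and 1860 to 2118 CPM for fibroblasts, wild type before FTO-overexpressing. The alveolar type 2 sum was 21637 to 24750 and 18603 to 22453 CPM. The part of these levels in the values of the 9 genes was not tested.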

How the data were processed

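Lung RNA of 6 samples was measured in 1 table of expected counts per gene, which the authors deposited: estimated read counts that need not be whole (9.66% to 10.3% of rows were not) and are not scaled to library size. The submitters' processing notes name fastp, HISAT2 and StringTie; genome build, annotation and counting program: not given in the sources used here. Per the labels' protocols, libraries came from a stranded kit for messenger RNA; whether counting used the strand is not given.

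Counts were rounded and tested in R 4.3.3 with edgeR 4.0.16 (filterByExpr, TMM scaling, quasi-likelihood F-test, group as the only term) over 16989 genes, with Benjamini-Hochberg adjustment and a threshold of 0.05. 525 rows without a symbol, 0.119% to 0.143% of the counts, carry gene identifiers and were kept. Intervals derive from the fold change and its F statistic. Libraries of a group differed far beyond counting noise (chi-square per degree of freedom of 27.7 to 48.6), so none was a duplicate. The members and the 16 gene lists (6 of the pathway, 10 of cell types) were chosen with earlier results of these data known. All 211 list entries were found, Il1f9 under its symbol Il36g by identifier. Named genes were the members, Fto, up to 3 genes of each list with the smallest p, and the 2 genes most like each member. Alternatives were RLE, upper-quartile or no scaling factors, other filters, DESeq2 1.42.0, limma-voom (limma 3.58.1), a replicate block, each library left out, antitrypsin copies summed and a threshold of 0.1. On counts simulated for this comparison (16740 genes) 73% of 100 simulated 2-fold changes and 97% of 100 simulated 4-fold changes were called, with 15 false among 185 calls. The changed genes had a mean of at least 50 counts, so the rates do not apply to the proteases. They are averages over genes and do not describe Slpi, whose interval of 0.386 to 2.09 includes a 2-fold change either way. RefSeq promoters on GRCm38.p6 were matched by symbol for 8 of the 9 members.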

Additional observations from a re-analysis of the deposited data

How the results depend on the processing

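The protease genes were filtered out in the run with a mean of at least 50 counts and could not be called there. Summing the antitrypsin copies left the values of the fitted members unchanged. The number of the 9 genes past the threshold was 0 in every alternative run. The number of all genes past it was 16, and it was 287 with no filter, 420 with DESeq2, 5 with limma-voom, 2 with a replicate block, 70 at a threshold of 0.1 and 1 to 49 without 1 library; the cause was not tested. The sign of a log2 fold change turned for Elane with limma-voom (-0.083) and with the replicate block (-0.089), and for Slpi with the replicate block (0.0015). Without 1 library the log2 fold change ran from -0.90 to 0.47 for Elane, -0.27 to 1.64 for Ctsg, -0.78 to 0.23 for Prtn3, -0.029 to 0.15 for Serpinb1a, -0.51 to 0.56 for Slpi, -0.13 to 0.030 for Cst3 and -0.56 to -0.044 for Serpina3n. The summed antitrypsin difference ran from -1.15 to 0.83 without 1 library, and its pseudocount was not fixed beforehand: 0.01 CPM was tried first and gave 0.66, 0.1 CPM was then chosen after that value was seen because its sign went against the group means, and 1 CPM, added later, gave -0.19. The labels link same-numbered libraries of the 2 groups by nothing but the number. Their deviations from the group means correlated at 0.108, -0.308 and -0.308. The highest correlation was 0.43, between wild-type replicate 3 and FTO-overexpressing replicate 2. By chi-square per degree of freedom, the closest libraries were replicates 1 of both groups (20.7). Deviations from means of 3 libraries depend on each other, so these values cannot decide whether libraries were paired. No fold change is given for Serpina1a or Serpina1b alone, which had too few counts for the filter. Depth limits the antitrypsin genes, at 27 counts or fewer per library for all copies together, and the proteases, at 10 to 101 counts.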
